A study of Mus musculus with 5 samples.

Results

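The data describe 10 claudin genes (Cldn1, Cldn3, Cldn4, Cldn6, Cldn7, Cldn8, Cldn10, Cldn18, Cldn23 and Cldn5) in sorted FOXJ1-GFP+ cells of the embryonic mouse lung, labelled as ciliated cells. A claudin was represented by every probe set that the array annotation tied to that 1 gene symbol alone. This gave 17 probe sets for the 10 genes, out of 45037 probe sets that are not controls and 18193 genes with a probe set of their own. Where a gene had several probe sets, the one with the highest mean stood for the gene. Of the 10 genes, 9 are known mainly from epithelia, and Cldn5 is known mainly from vascular endothelium.

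The study hybridised 5 biological replicates of 1 group to 1 Affymetrix whole-genome mouse array each. The cells were GFP+ cells collected by flow cytometry from E17.5 lungs. For this, FOXJ1-GFP mice, in which the FOXJ1 promoter drives GFP, were mated with outbred ICR mice. The gate therefore selects cells by the activity of that 1 promoter. E11.5 tip progenitors, the other cells of the study, are not analysed here, so there is no second condition, and the comparisons below are between each claudin and a background level and between claudins over the same arrays. Whether each replicate is its own litter is not stated, and the p-values cover only the spread among these 5 samples, which may be technical.

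Claudins are small membrane proteins that span the membrane several times and join those of the neighbouring cell to form the strands of tight junctions. Some, such as Cldn3, Cldn4 and Cldn5, tighten the seal between cells, while others, such as Cldn2 and Cldn10, form pores for ions. In the lung, Cldn3, Cldn4 and Cldn18 are known from the airway and alveolar epithelium, with Cldn18 well known for its part in the alveolar barrier, and Cldn5 is the main claudin of blood vessels, although it has also been found in alveolar epithelium.

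The start regions of Cldn3, Cldn4 and Cldn5 are shown because the first and second are direct neighbours in the genome, and the last is the endothelial member. Each runs from 250 bases before to 50 bases after the gene's start, read 5′ to 3′ on the gene's own strand, from RefSeq on GRCm38.p6. Capitals mark matches, on either strand, to the E-box CAGGTG, a sequence that Snail and Zeb repressors can bind, or to AACNGGTT, a sequence of the kind that grainyhead factors bind. Cldn3 lies at chr5:134985964-134986263 on the plus strand, Cldn4 at chr5:134946885-134947184 on the minus strand and Cldn5 at chr16:18776597-18776896 on the plus strand.
Cldn3: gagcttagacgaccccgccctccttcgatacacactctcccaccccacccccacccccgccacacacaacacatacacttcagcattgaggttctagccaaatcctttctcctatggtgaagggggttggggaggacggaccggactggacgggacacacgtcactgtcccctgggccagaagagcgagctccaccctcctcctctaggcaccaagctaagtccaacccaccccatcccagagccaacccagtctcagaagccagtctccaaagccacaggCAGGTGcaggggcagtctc
Cldn4: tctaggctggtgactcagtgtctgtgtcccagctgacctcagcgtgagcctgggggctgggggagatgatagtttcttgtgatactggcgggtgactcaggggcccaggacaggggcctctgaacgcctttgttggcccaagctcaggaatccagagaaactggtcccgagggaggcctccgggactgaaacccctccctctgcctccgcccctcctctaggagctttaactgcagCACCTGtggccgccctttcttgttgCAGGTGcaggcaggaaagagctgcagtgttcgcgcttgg
Cldn5: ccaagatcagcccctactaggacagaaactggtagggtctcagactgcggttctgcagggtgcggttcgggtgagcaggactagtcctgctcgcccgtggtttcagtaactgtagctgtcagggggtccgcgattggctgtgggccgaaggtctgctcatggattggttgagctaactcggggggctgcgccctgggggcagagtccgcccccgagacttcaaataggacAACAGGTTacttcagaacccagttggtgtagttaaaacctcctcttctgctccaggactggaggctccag
The Cldn3 window held 1 E-box, at position 32 after the start, and the Cldn4 window held 2, at positions -14 and 12. The Cldn5 window held no E-box and 1 match to the grainyhead sequence, at position -20. Start regions were found for 8 of the 10 claudins, with 11 windows in all. The E-box was present in 4 of these 11 windows (Cldn3, Cldn4, Cldn6 and 1 of the Cldn7 windows), against 20.2% of all 32817 start regions of the same length. The grainyhead sequence was present in 1 of 11, against 2.08% of all start regions. The GC box GGGCGG was found in 7 of 11 windows (35.6% of all), the box CCAAT in 2 (37.4% of all), and neither TATAAA (13.6% of all) nor the ETS sequence CAGGAAG (13.3% of all) in any of them. No matches of different motifs overlapped. The GC content was 60.7% for Cldn3, 61.0% for Cldn4 and 58.3% for Cldn5, beside a median of 52.7% over all start regions. These matches describe the letters in the windows and are no evidence of binding.

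The deposited values are log2 signals of 1 probe set on 1 array, so a difference of 1 is a doubling of signal. Because probe sets differ in how strongly they bind their target, the level of one gene is not ranked against that of another. Each probe set was tested against a background level of 7.97, the 95th percentile among 135 genes not expected in lung. These were 75 olfactory, vomeronasal and taste receptor genes and 60 genes restricted to other tissues. Each probe set was also tested against 5, taken here as a log2 value. The study used 5 arbitrary units as a cut-off on average expression, together with a fold-change cut-off, when comparing these cells with tip progenitors. Which arrays the study averaged is not stated. Here 5 was applied to the FOXJ1-GFP+ arrays alone, so the calls above 5 may differ from the study's use of it. Tests were limma's moderated one-sided tests, with p-values adjusted by Benjamini-Hochberg over all 45037 probe sets.

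Signal of 9 of the 10 claudins lay above background, the exception being Cldn1, beside 58.0% of all genes. All 10 lay above 5, beside 81.3% of all genes. By single probe sets, 13 of 17 were above background, beside 40.4% of all probe sets, and 14 of 17 were above 5, beside 72.2% of all. The multiciliated cell list had 15 of 16 genes above background, and only Spag6, at 3.67 ± 0.13, was not above it. Foxj1 was at 12.82 ± 0.08 and Dnah9, a ciliary dynein, at 12.71 ± 0.11 (SD, n = 5). By the same call, 11 of 11 alveolar type 2, 12 of 12 alveolar type 1 and 17 of 18 endothelial genes were above background. These counts therefore cannot single out ciliated cells. The plot of values on each array shows the 10 genes against both levels.

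**Figure D1:**
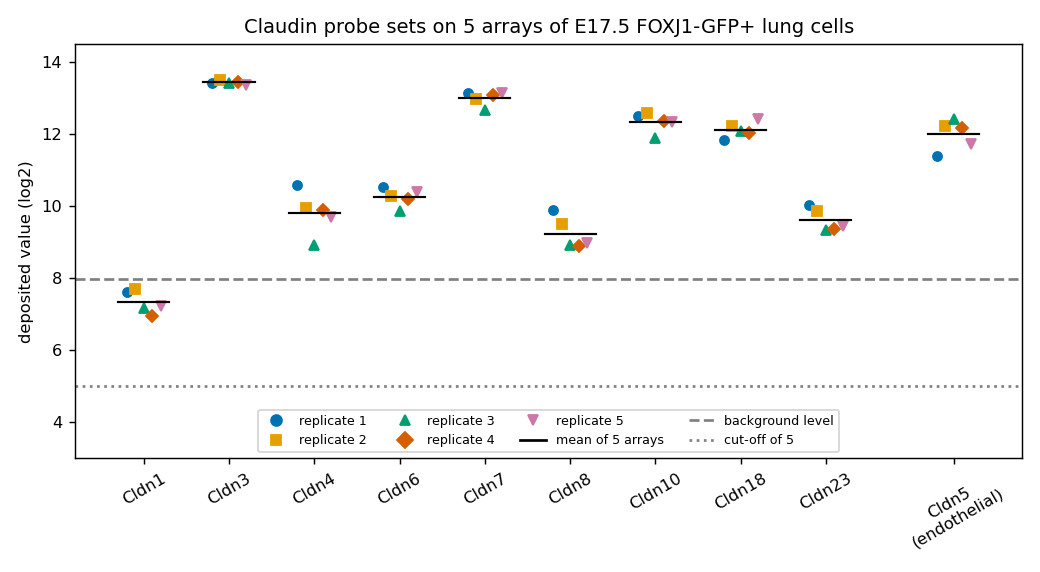
Deposited log2 value (vertical axis) of the chosen probe set of each claudin on each of the 5 arrays, one marker per replicate, with a bar at the mean, the background level of 7.97 dashed and the cut-off of 5 dotted. All 5 points lie above background for 9 of the 10 genes and below it for Cldn1, and the points of Cldn4 are the most spread, with a range of 1.65.

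Cldn3, a sealing claudin found in most simple epithelia, had values of 13.43, 13.51, 13.42, 13.45 and 13.37 in replicates 1 to 5. Its mean was 13.43 ± 0.05 (SD, n = 5; limma adjusted p = 1.35e-10), and its SD lay at the 4.7th percentile of genes above background. The arrays were thus nearly equal for this probe set. The other Cldn3 probe sets had means of 13.40 ± 0.08, 12.80 ± 0.12 and 11.93 ± 0.25, and each was above background. The one with the lowest mean was less even, with 12.12, 12.10, 11.52, 11.91 and 11.99 in replicates 1 to 5, highest in replicate 1 and lowest in replicate 3. The probe sets of Cldn3 therefore differed in how much the arrays varied, with ranges between 0.14 and 0.61. All of them belong to kinds that can bind several transcripts. For the probe sets at 13.43 and 12.80 these can be transcripts of other genes, which limits what their values show of Cldn3 alone.

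Cldn4, a barrier claudin that also limits sodium passage, is the direct neighbour of Cldn3 on chromosome 5, with 0 annotated genes between them. Its values were 10.57, 9.94, 8.93, 9.91 and 9.71 in replicates 1 to 5, with a mean of 9.81 ± 0.59 (adjusted p = 5.2e-05). Replicate 1 was high and replicate 3 low, and the SD lay at the 99.5th percentile of genes above background. The range of 1.65 came down to 1.01 without replicate 1 and to 0.87 without replicate 3. Cldn13, the next claudin on the other side of Cldn4, with 2 annotated genes between them, averaged 4.83 ± 0.13 and was not above background. The call of Cldn4 was lost against a level of 9.42 taken from the tissue-restricted genes only (adjusted p = 0.174).

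Cldn7, a claudin of the basolateral membrane as well as the junction, had 13.15, 12.98, 12.66, 13.08 and 13.15 in replicates 1 to 5, with a mean of 13.00 ± 0.20 (adjusted p = 5.42e-10). The array of replicate 3 was below the other 4, and the range of 0.49 fell to 0.18 without it. Cldn6, a claudin best known from embryonic epithelia and early embryos, had 10.52, 10.27, 9.87, 10.20 and 10.40, with a mean of 10.25 ± 0.25 (adjusted p = 1.08e-07). It followed the same order at its ends, lowest in replicate 3 and highest in replicate 1, and its range of 0.65 was 0.32 without replicate 3.

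Cldn10, a pore-forming claudin, had 12.51, 12.59, 11.90, 12.37 and 12.34 in replicates 1 to 5. Its mean was 12.34 ± 0.27 (adjusted p = 2.89e-09), again with replicate 3 below the others and a range of 0.70 that was 0.25 without it. The Cldn10 probe set belongs to a kind that can bind several transcripts.

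Cldn8, known from the distal kidney tubule and the colon, had 9.90, 9.50, 8.93, 8.90 and 8.97, with a mean of 9.24 ± 0.44 (adjusted p = 0.000105). Cldn23, known from the differentiated cells of the intestinal surface, had 10.04, 9.87, 9.33, 9.35 and 9.45, with a mean of 9.61 ± 0.33 (adjusted p = 3.68e-06). In both genes replicates 1 and 2 were high and the other 3 arrays lay close together and lower. The range of Cldn8 was 1.00 and came to 0.60 without replicate 1. Against that same level of 9.42, Cldn23 lost its call (adjusted p = 0.291) and the mean of Cldn8 lay 0.18 below the level.

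Cldn18, the claudin of the alveolar barrier and of the stomach, had values of 11.84, 12.22, 12.08, 12.03 and 12.43 in replicates 1 to 5. The mean was 12.12 ± 0.22 (adjusted p = 1.79e-09), with replicate 1 low and replicate 5 high, and the range of 0.59 was 0.38 without replicate 5. A second Cldn18 probe set had 8.43, 8.54, 7.91, 7.96 and 8.54, with a mean of 8.28 ± 0.31, just above background (adjusted p = 0.0423) and over it on 3 of 5 arrays. The 2 probe sets thus differed in level, and they shared their highest array, replicate 5, but not their lowest.

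Cldn1, a barrier claudin known above all from the skin, was the exception among the epithelial claudins. Its highest probe set had 7.61, 7.70, 7.16, 6.96 and 7.23, with a mean of 7.33 ± 0.31, which lay 0.64 under the background level (adjusted p = 1.0) with 0 of 5 arrays over it. It was above the cut-off of 5 (adjusted p = 1.54e-07). The other 3 probe sets of Cldn1 averaged 4.89 ± 0.15, 3.16 ± 0.09 and 2.67 ± 0.08, and none of them was above 5. Cldn1 lay 1.88 above a level of 5.45 taken from the receptor genes only. The plot of claudins with several probe sets shows this spread between probe sets of 1 gene.

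**Figure D2:**
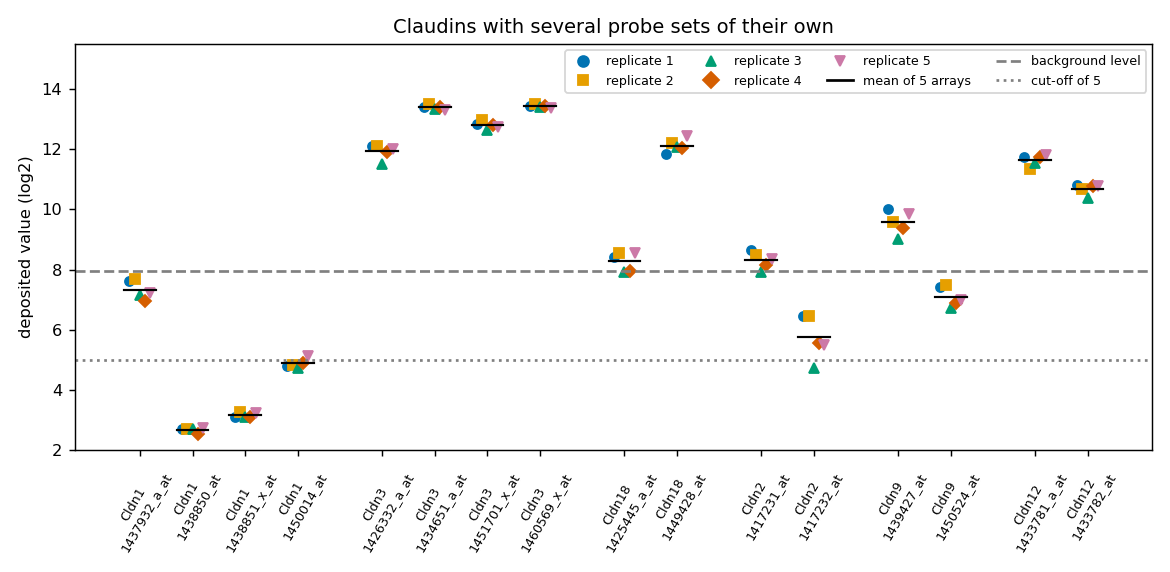
Deposited log2 value (vertical axis) of every probe set of the 6 claudins Cldn1, Cldn3, Cldn18, Cldn2, Cldn9 and Cldn12, one marker per replicate, with a bar at the mean, the background level dashed and the cut-off of 5 dotted. The 4 probe sets of Cldn1 run from 2.67 to 7.33 in mean and all lie under background, while the 4 of Cldn3 run from 11.93 to 13.43 and all lie above it.

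Cldn5, the claudin of vascular endothelium, had values of 11.41, 12.23, 12.43, 12.16 and 11.72 in replicates 1 to 5, from its single probe set. The mean was 11.99 ± 0.42 (adjusted p = 4.11e-08), 5 of 5 arrays were over background, and the SD lay at the 97.1st percentile of genes above background. Replicate 1 was low and replicate 3 high, the reverse of Cldn4. In these sorted cells, which are a bulk sample, fewer cells of a type and less RNA per cell cannot be told apart.

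Most epithelial claudins and Cldn5 differed in direction between replicates 1 and 3. By their chosen probe sets, Cldn18 shared the direction of Cldn5 and Cldn3 hardly differed. The value in replicate 1 exceeded that in replicate 3 by 1.65 for Cldn4, 0.96 for Cldn8, 0.71 for Cldn23, 0.65 for Cldn6, 0.61 for Cldn10, 0.49 for Cldn7 and 0.01 for Cldn3. For the lowest Cldn3 probe set it was 0.61. The difference was -0.24 for Cldn18 and -1.02 for Cldn5. The second Cldn18 probe set had the other order, with 8.43 in replicate 1 and 7.91 in replicate 3. Replicate 3 was below replicate 1 in 7 of the 8 epithelial claudins above background, while 57.0% of the 10555 genes above background had this order. Replicate 3 was the lowest array for 5 of the 8, against 33.7% of those genes, and replicate 1 the highest for 5 of the 8, against 31.4%. These 2 arrays were chosen after the values were seen, so no test was made.

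Averaged over the 8 epithelial claudins, the deviation from each gene's own mean was 0.27, 0.13, -0.34, -0.07 and 0.00 in replicates 1 to 5, against -0.58, 0.24, 0.44, 0.17 and -0.27 for Cldn5. This mean of 8 genes covered a range of 0.61, and 0.34 without replicate 3. Means over the lists described below with 4 to 7 genes above background covered between 0.25 (basal cells) and 0.73 (white blood cells). The mean over all 10555 genes above background covered 0.04, but averaging so many genes leaves little deviation, so it gives no scale for 8 genes. The single gene Cldn5 covered 1.02, beside a median range of 0.37 for a single gene above background. Taken gene by gene, the deviation of a claudin minus that of Cldn5 covered between 1.03 (Cldn3) and 2.67 (Cldn4) over the 5 arrays.

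**Figure D3:**
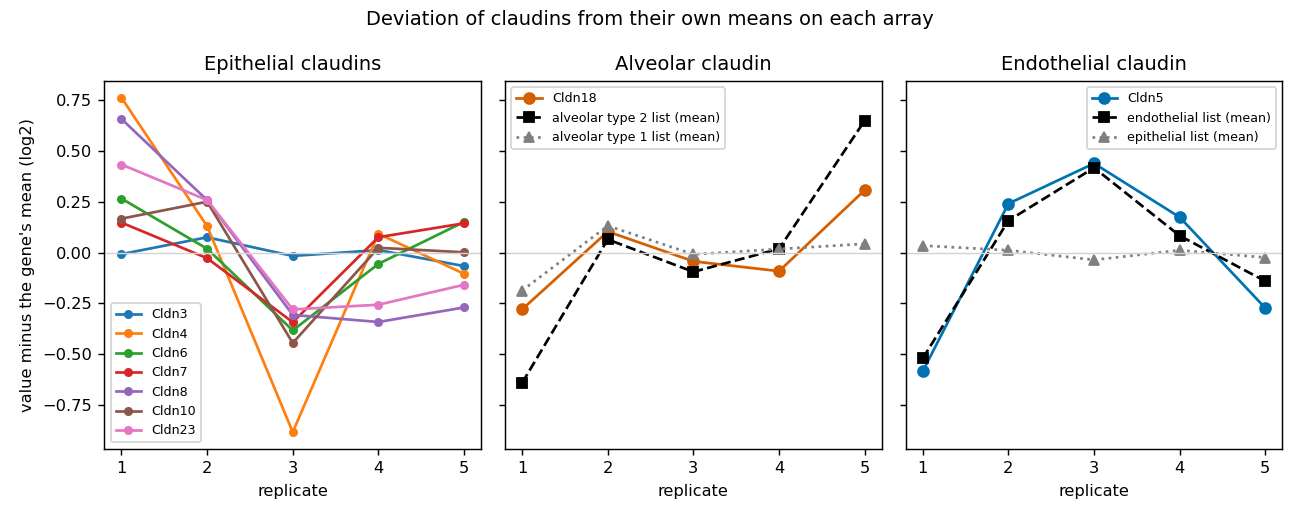
Value minus the gene's own mean over the 5 arrays (log2, vertical axis) in replicates 1 to 5 for 7 epithelial claudins (left), for Cldn18 with the alveolar marker list means (middle) and for Cldn5 with the endothelial and epithelial marker list means (right). Cldn5 and the endothelial list are both lowest in replicate 1 and highest in replicate 3, while Cldn4 is highest in replicate 1 and lowest in replicate 3.

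Markers of other cell types moved over the arrays in the same way as some claudins, and their part in the claudin values was not tested. Beside the calls of every list stands the 58.0% of all genes above background. Of 18 endothelial genes, 17 were above background and only Erg, at 8.21 ± 0.28, was not (adjusted p = 0.0752). Their mean deviation was -0.52, 0.16, 0.42, 0.08 and -0.14 in replicates 1 to 5, beside the values of Cldn5 above. Of the 17, 15 were lowest in replicate 1 and 14 highest in replicate 3. Of all 10555 genes above background, 2168 were lowest in replicate 1 and 2187 highest in replicate 3. Pecam1, an adhesion molecule of endothelium, had 10.45, 11.22, 11.39, 10.56 and 10.55. Tek, a receptor for angiopoietins, had 11.22, 11.78, 11.85, 11.84 and 11.47. Fibroblast and smooth muscle genes, 12 of 15 above background, also ran lowest in replicate 1 (-0.27) and highest in replicate 3 (0.34). The epithelial list, 16 of 18 above background (Nkx2-1 and Cdh3 were not), had a median SD of 0.09, as had the multiciliated list, beside 0.37 for the endothelial list. These lists lay at unlike signal levels, with median means of 12.39 (epithelial), 12.77 (multiciliated) and 10.65 (endothelial). The part of the level in these SDs was not tested. Single genes of the epithelial and multiciliated lists varied more, with ranges of 0.72 for Rab25 and 1.61 for Dnah5.

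The alveolar type 2 list had 11 of 11 measured genes above background. All 11 were lowest in replicate 1 and highest in replicate 5, as was the chosen Cldn18 probe set. Of all 10555 genes above background, 2168 were lowest in replicate 1 and 927 highest in replicate 5. The mean deviation of the type 2 list ran between -0.64 and 0.65, a range of 1.29, beside 0.59 for Cldn18. Sftpc, which encodes a surfactant protein, averaged 14.06 ± 0.27 and varied between 13.61 in replicate 1 and 14.37 in replicate 5. The alveolar type 1 list had 12 of 12 genes above background and a range of 0.32. The mesothelial list had 4 of 8 genes above background (Lrrn4, Muc16, Upk1b and Aldh1a2 were not). Its mean deviation was highest in replicate 1 (0.26) and lowest in replicate 3 (-0.43), but its genes were mixed. Highest in replicate 1 were 2 of 4, beside 31.4% of all genes above background. Lowest in replicate 3 were 2 of 4, beside 33.7% of all, and only Gpm6a had both ends. The neuroendocrine list, 7 of 8 above background (Syp was not), was highest in replicate 1 (0.17) and lowest in replicate 4 (-0.25), the ends of Cldn8. Of its 7 genes, 3 were highest in replicate 1, beside 31.4% of all genes above background. Lowest in replicate 4 were 4 of the 7, beside 1588 of all 10555 genes. White blood cell genes, 7 of 14 above background, covered a range of 0.73 in mean deviation, lowest in replicate 1 and highest in replicate 4, and 6 of 12 club and goblet cell genes, lowest in replicate 3 and highest in replicate 4, covered 0.55.

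Genes whose deviations were most like those of a claudin were sought among 10554 genes above background, by the root mean square difference over the 5 arrays. This is a description over 5 shared arrays. Where the nearest 100 genes are counted below, they are 100 of these 10554 genes, a small share, so a count of 0 carries little. The white blood cell, club and goblet, basal, neuroendocrine and junction lists were not counted in this way. For Cldn4 the nearest were Lcmt2, Zfp365 and A930006K02Rik, at differences of 0.13, 0.15 and 0.17. For Cldn18 they were Gja1, which encodes a gap junction protein, Icosl and Tspan8, at 0.04, 0.06 and 0.06, and the nearest 100 genes held 4 of 11 alveolar type 2 genes (Sftpc, Abca3, Etv5 and Lpcat1) and 2 of 12 alveolar type 1 genes (Ager and Pdpn). For Cldn5 they were Clec1a, Sox18 and Acvrl1, at 0.02, 0.03 and 0.05. Sox18 encodes a transcription factor and Acvrl1 a receptor of endothelium. The nearest 100 genes of Cldn5 held 7 of 17 endothelial genes, 0 of 16 epithelial genes and 0 of 15 multiciliated genes. Every other member above background also had 0 epithelial and 0 multiciliated genes among its nearest 100. The measure depends on the size of the deviations, and these 2 lists had a median SD of 0.09, beside 0.42 for Cldn5. Their counts of 0 therefore do not set Cldn5 apart. The fibroblast and smooth muscle list gave 1 of its 12 genes, Pdgfra, to the nearest 100 of Cldn5.

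The nearest genes of the remaining members came from no list used here apart from Uchl1, a gene of neuroendocrine cells. They were Exosc4, Uchl1 and Stk35os1 for Cldn6, 4930520O04Rik, Mrps18b and Oxld1 for Cldn7, Thegl, Mtf1 and Nadk2 for Cldn8, Jagn1, Psmd7 and Cdkn2aipnl for Cldn10, and Ikzf2, Pdpk1 and Stam2 for Cldn23. Their differences were between 0.011 and 0.095. Among the claudins themselves, the closest pair by this measure was Cldn6 with Cldn7, at 0.08, and Cldn8 with Cldn23 followed among the 10 genes at 0.12. The farthest pair was Cldn4 with Cldn5, at 0.85. Of the neighbours Cldn3 and Cldn4, the difference was 0.52 with the highest Cldn3 probe set, although the lowest one had the same highest and lowest arrays as Cldn4.

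**Figure D4:**
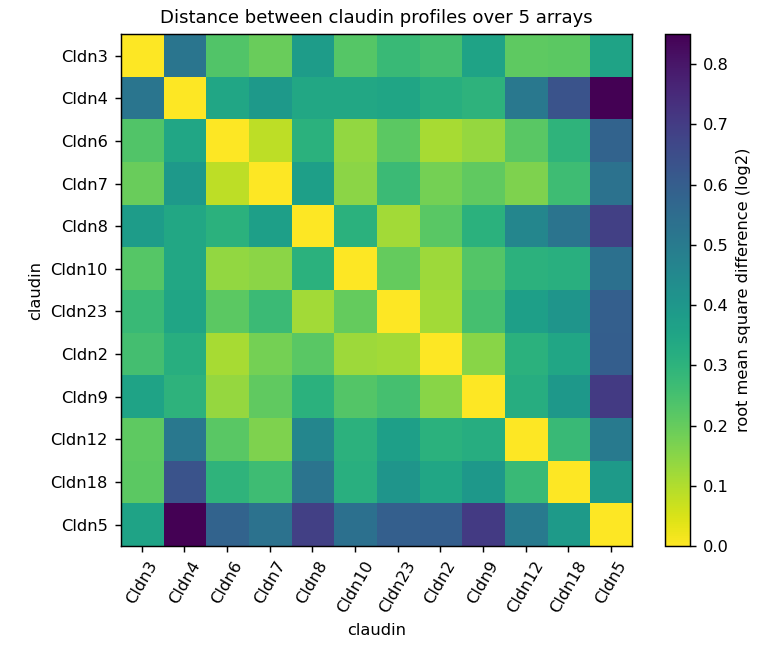
Root mean square difference over the 5 arrays (log2, colour scale) between the deviations of each pair of the 12 claudins above background. The darkest cell is Cldn4 with Cldn5, at 0.85, and the lightest off the diagonal is Cldn6 with Cldn7, at 0.08.

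Of the other claudins, 14 were measured and 3 (21.4%) were above background, beside 58.0% of all genes, and 6 were above 5, beside 81.3% of all genes. Cldn12, a claudin without the usual scaffold-binding end, averaged 11.63 ± 0.19, and its second probe set 10.69 ± 0.18. Cldn9, known from the inner ear and a direct neighbour of Cldn6 with 0 annotated genes between them, averaged 9.57 ± 0.39 (adjusted p = 1.1e-05), while its second probe set averaged 7.10 ± 0.34 and was not above background. Like Cldn6 it was highest in replicate 1 (10.02) and lowest in replicate 3 (9.03), and the pair differed by 0.13 in the measure above. Cldn2, a cation pore, averaged 8.31 ± 0.29 (adjusted p = 0.0212), a call lost without replicate 1 or without replicate 2, and its second probe set averaged 5.74 ± 0.74.

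Cldn11, Cldn13, Cldn14, Cldn16, Cldn19, Cldn34b2, Cldn34c4 and Cldn34d averaged between 3.08 and 4.83 and were not above 5. Cldn15, Cldn22 and Cldn34c1 averaged 6.01 ± 0.33, 5.42 ± 0.15 and 6.89 ± 0.15, above 5 and not above background. Over the family, 12 of 24 measured claudins were above background, beside 58.0% of all genes.

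The proteins that hold claudins in place or act beside them were also measured. Of 28 measured tight junction partners, 27 were above background (96.4%, beside 58.0% of all genes), and Ildr1, a protein of junctions where 3 cells meet, was the exception at 7.29 ± 0.30. The scaffolds that bind the tails of claudins, Tjp1 and Tjp3, averaged 12.74 ± 0.15 and 12.52 ± 0.07. Occludin (Ocln) averaged 12.58 ± 0.25 and Marveld2, its relative at the corners between cells, 10.73 ± 0.19. The median SD of the partners above background was 0.15, the same as over all genes above background.

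Replicate 3 was the lowest array for 10 of the 27 partners (37.0%, beside 33.7% of all genes above background). Among them were Ocln (12.81, 12.84, 12.30, 12.37 and 12.58 in replicates 1 to 5), Marveld2 and Cxadr. Tjp1 (12.52, 12.70, 12.91, 12.84 and 12.72) and Esam, an adhesion molecule of endothelium that averaged 10.63 ± 0.37, were lowest in replicate 1 and highest in replicate 3, the ends of Cldn5. Jam2, Magi1 and Mpdz had the same ends. Of the 27 partners, 7 were lowest in replicate 1 and 6 highest in replicate 3. Highest in replicate 1 were 11 of the 27 (40.7%, beside 31.4% of all genes above background). Of genes related to claudins by their membrane topology, 6 of 8 were above background (75.0%, beside 58.0% of all genes), and Cldnd2 and Lim2 were not. Among the 6 were Cldnd1 at 11.09 ± 0.33, Tmem47 at 10.31 ± 0.21, Pmp22 at 12.38 ± 0.24 and Emp2 at 12.64 ± 0.04.

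**Figure D5:**
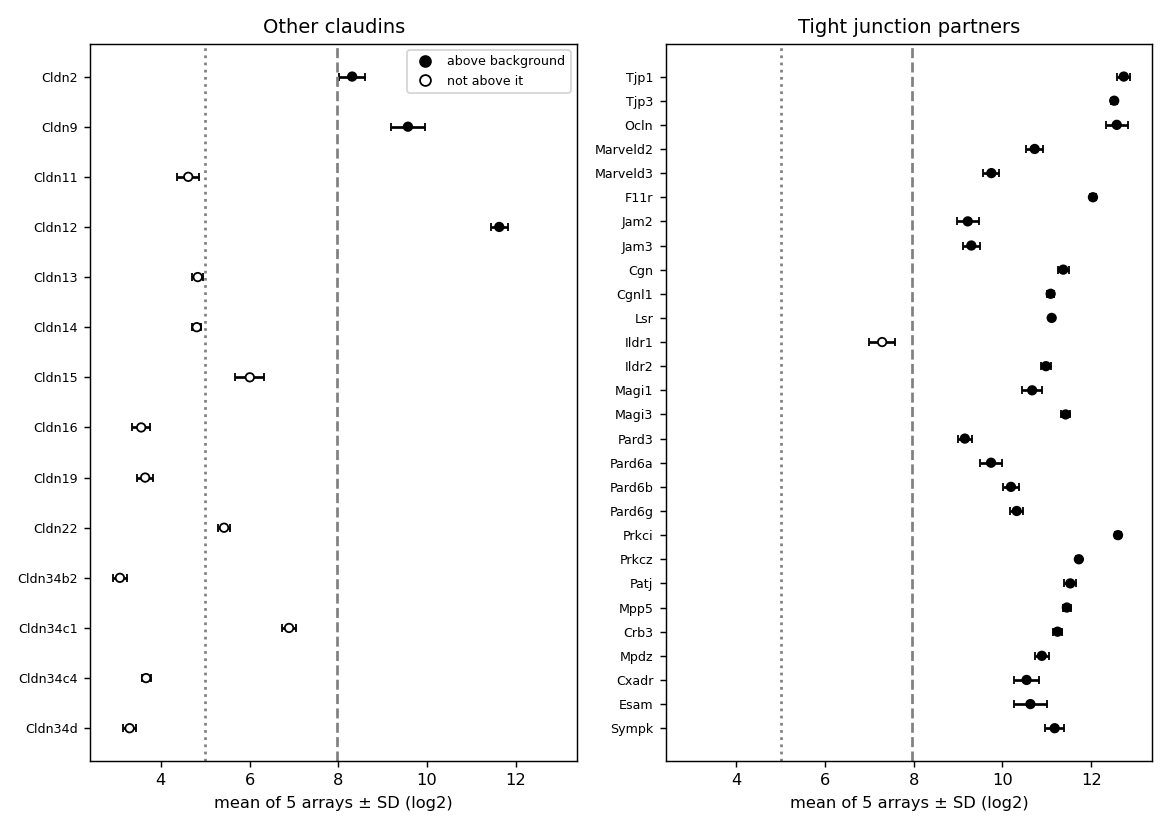
Mean of 5 arrays with SD (log2, horizontal axis) for the 14 other claudins (left) and 28 tight junction partners (right), filled where above background, with the background level dashed and the cut-off of 5 dotted. On the left 3 of 14 circles are filled, and on the right 27 of 28.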

How the data were processed

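RNA of 5 samples of 1 group, E17.5 FOXJ1-GFP+ cells, was measured on 1 array each. The labels gave the group and replicate numbers. After trypsin and EDTA dissociation and cell sorting, the authors extracted the RNA with RNeasy, amplified it with NuGEN Ovation V2, labelled it with biotin, and used Bioconductor packages of R for the analysis. The deposited table holds a log2 value for every probe set on every array. That the arrays share a common scale was inferred from their close medians. How probes were summarised and arrays normalized is not stated in the sources used here, and the log2 unit was read from the values (2.37 to 15.11). Normalization makes arrays alike on the whole, so values of this kind cannot show a change of total RNA.

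Array medians were between 7.18 and 7.26, and arrays correlated at r between 0.987 and 0.994 across probe sets. The number of arrays limits the precision. Probe sets were named from the platform annotation, with 99.4% of identifiers found in the GRCm38.p6 gene table and 0 symbols changed. There were 34945 probe sets with 1 gene, 932 with several genes, which were not used for genes, and 9160 unnamed here, and 64 control probe sets were left out. The mean of each probe set was fitted by lmFit and eBayes (limma 3.58.1, R 4.3.3) and tested one-sided against each level at an adjusted p of 0.05, after a check on simulated data. Of the background genes, 5 were themselves above the background level. Other steps ran in Python 3.11.15 (numpy 2.4.6, pandas 2.3.3, scipy 1.17.1, matplotlib 3.10.9).

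Alternatives were the choice of probe sets, quantile or median scaling, each array left out, other background genes, and all arrays over the level in place of a test. The members, lists and tests were chosen with earlier results of these data known. Named are all claudins, genes from among the first 4 measured of a list described, up to 5 whose call goes against most of it, and the 3 genes nearest to a claudin of at least median SD (for Cldn3 and Cldn1 this was not done). Rab25, Dnah5, Gpm6a, Ocln, Cxadr, Esam, Jam2, Magi1, Mpdz, Emp2 and the list genes counted among the nearest 100 were in part named after their values were seen. The background genes named were those with a mean over the level. Protein sequences were not used here.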

Additional observations from a re-analysis of the deposited data

Results flagged for a closer look

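Among 35 probe sets of claudins, 4 had 1 array that stood apart from the other 4, with a gap to the nearest array of over 0.71 of the whole range (Dixon's 95% critical value for 5 arrays), and chance alone gives about 1 in 20. None of the 4 was above background. Only 1 was a probe set of the 10 claudins, a low one of Cldn1 whose lowest array was replicate 4, with a ratio of gap to range of 0.75. The other 3 were Cldn14, lowest in replicate 3 at 0.74, Cldn15, lowest in replicate 3 at 0.83 (5.43, against 6.08 to 6.21 on the other 4), and Cldn22, lowest in replicate 5 at 0.78.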

How the results depend on the processing

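No paired analysis was possible because there is 1 group. The choice of background genes moved the calls. At their 99th percentile (level 10.35), 5 of the 10 claudins, 8 of their 17 probe sets and 1 of the other 14 claudins were above it, beside 30.4% of all genes, and Cldn4, Cldn6, Cldn8 and Cldn23 lay at -0.54, -0.10, -1.11 and -0.74 from it. With the tissue-restricted genes alone (level 9.42), 6 of 10 claudins and 1 of the others were above, beside 43.0% of all genes, with Cldn4 at 0.39, Cldn23 at 0.19 and Cldn8 at -0.18. With the receptor genes alone (level 5.45), 10 of 10 claudins, Cldn1 among them at 1.88, and 5 of the others were above, beside 77.3% of all genes. Quantile or median scaling and leaving out any 1 array left 9 of the 10 claudins above background. Without probe sets with a suffix, 7 of 8 were above it, beside 61.8% of all genes, and Cldn3 and Cldn10 had none left.

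The range of the mean deviation of the epithelial claudins ran from 0.34 (without replicate 3) to 0.61 when 1 array was left out, and that of Cldn5 from 0.71 to 1.02. Averaging the probe sets of a gene gave a mean of 4.51 for Cldn1, 12.89 for Cldn3 and 10.20 for Cldn18. The cause of these shifts was not tested. Cross-hybridisation, saturation of high probe sets and the 5 arrays limit what the values show.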
